A study of Mus musculus with 10 samples.

Results

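The genes described here encode the 3 D-type cyclins (Ccnd1, Ccnd2 and Ccnd3), their kinase partner Cdk6, the 4 INK4 genes (Cdkn2a, Cdkn2b, Cdkn2c and Cdkn2d) and the CIP and KIP inhibitors Cdkn1a and Cdkn1b. They were taken by symbol, as the 10 rows of the deposited table of 26335 genes that carry these names, and all 10 passed the filter on low values that left 12306 genes to test. RNA was sequenced from mSCLC-2405, 1 mouse small cell lung cancer line that was grown from a primary lung tumor of a mouse in which Rb1 and Trp53 had been deleted by Adeno-Cre given into the airway. All libraries come from this line, so the controls carry both deletions too. There were 5 control libraries, given DMSO, the solvent, for 48 h, and 5 libraries after 250 μM stiripentol, an antiseizure medication, for the same time. Nothing in the sample records says that the libraries of a group came from separate cultures, so the p-values measure the spread between these libraries, which may be technical.

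D-type cyclins bind Cdk4 or Cdk6 in response to growth signals, and the active kinase phosphorylates the retinoblastoma protein, which releases E2F factors and lets the cell leave G1. INK4 proteins bind Cdk4 and Cdk6 directly and block their pairing with a D cyclin, whereas the CIP and KIP proteins p21 and p27 bind the assembled complexes of cyclin E or A with Cdk2 and inhibit them. Small cell lung cancers nearly always lack the retinoblastoma protein, and cells without it do not need cyclin D activity to enter S phase and often hold a high level of p16.

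With all 10 libraries, 5 of the 10 genes fell after stiripentol (Ccnd3, Cdk6, Cdkn2a, Cdkn2b and Cdkn2c), 1 rose (Cdkn2d), and 4 did not pass the test. Over all genes tested, 27.7% passed it, 14.1% lower and 13.6% higher. The largest fall that passed was that of Cdk6, by 1.11 on the log2 scale, closely followed by Cdkn2b, which fell by 1.10. The other 4 genes, Ccnd1, Ccnd2, Cdkn1a and Cdkn1b, had log2 changes of -1.53, -0.66, 0.79 and 0.30, with adjusted p = 0.0739, 0.156, 0.0552 and 0.264. Values are log2 CPM, on the log2 scale, where CPM is the usual scaling of each gene's reads to a library total of 1000000 reads, and the test was limma with Benjamini-Hochberg adjustment over the 12306 genes, called at an adjusted p under 0.05.

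The libraries of each group stood in 2 sets, and 6 of the 10 genes changed by different amounts in them. In the study's own numbering, controls 4 and 5 of the sample records go with stiripentol 1 and 2, called here the set of 2, and controls 1 to 3 go with stiripentol 3 to 5, the set of 3. Across genes, libraries of the same group and set correlated at 0.983 to 0.998, and libraries of the same group in different sets at 0.920 to 0.939. Between the groups, libraries correlated at 0.881 to 0.936 within a set and at 0.840 to 0.938 across sets. These ranges overlap, so the match of controls to stiripentol libraries rests on the numbering alone. All changes within sets, set terms and interactions given here depend on that match. The records do not say what separated the sets. Normalization followed neither the groups nor the sets, since the log2 value standing for 0 reads was lower in controls 1 to 3 than in the other 7 libraries. With a term for the set in the model, all 10 genes passed the test, 7 lower and 3 higher, where 50.7% of all genes did, 27.1% lower and 23.6% higher. With 1 mean per group and set, 2 against 2, limma called no gene, and 2 of the 10 genes and 1116 of all genes had an unadjusted p under 0.05.

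Libraries held 22375625 to 65299372 reads in control and 55015760 to 60670901 in stiripentol, and each of the 10 genes had at least 309 reads in each library. Both deleted genes were still read. Rb1 stood at 4.01 to 11.3 CPM in control and 6.92 to 23.8 CPM in stiripentol libraries, and Trp53 at 0.833 to 3.61 and 0.824 to 2.46 CPM. Such reads can come from outside the deleted exons, so they do not check the deletion. Several defining neuroendocrine markers were at or near 0. Dll3, Chgb and Insm1 were at or under 0.182 CPM, while Ncam1 stood at 92.8 to 154 CPM. Neurod1, Chga and Calca were not found under these names among the rows as read here, so the list covered 7 of its 10 genes. The neuroendocrine list summed to 93.5 to 120 CPM in control and 127 to 157 CPM in stiripentol libraries, without overlap, with Ncam1 the 1 gene of 2 tested that rose. Of the epithelial markers, Epcam had 1 read in all and Cdh1 stood at 0.181 to 1.09 CPM. The keratins Krt8, Krt18 and Krt19 stood at 793 to 1274, 689 to 1489 and 102 to 361 CPM and made up nearly all of the sum. The epithelial list summed to 2380 to 2959 CPM in control and 1809 to 2319 CPM in stiripentol libraries, without overlap, with Krt8 the 1 gene of 3 tested that fell. Markers of variant small cell lung cancers summed to 150 to 179 CPM in control and 74.4 to 176 CPM in stiripentol libraries, with Yap1 lower and Avil higher. Yap1 stood at 49.1 to 175 and Avil at 0.487 to 59.3 CPM, while Trpm5 and Ascl2 were at most at 0.33 CPM. The summed level of 7 fibroblast markers was 404 to 696 CPM in control and 152 to 185 CPM in stiripentol libraries, with 4 of them lower and Lum at most 0.0517 CPM. That of 4 leukocyte markers was 6.41 to 18.6 and 58.9 to 103 CPM, with Cd68 alone higher and with Ptprc and Cd79a at most 3 reads in a library. Endothelial markers summed to at most 1.2 CPM. The part of these shifts in the changes given here was not tested, and in bulk RNA fewer cells of a kind and less RNA per cell cannot be told apart.

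Ccnd1 encodes cyclin D1, the D cyclin most often raised in cancers. Its log2 CPM was 9.17, 9.03 and 8.65 in controls 1 to 3 and 7.74 and 7.81 in controls 4 and 5. It was 5.40 and 5.56 in stiripentol 1 and 2 and 8.02, 7.88 and 7.92 in stiripentol 3 to 5. The stiripentol libraries of the set of 3 lay just above the controls of the set of 2, so the groups overlapped, although within each set every stiripentol library was below every control. Ccnd1 averaged 8.48 ± 0.67 (SD, n = 5) in control and 6.95 ± 1.35 in stiripentol, a log2 change of -1.53 with a 95% interval of -2.82 to -0.24, which did not pass the test (exact permutation p = 0.0794, two-sided).

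Within the sets, Ccnd1 fell by 2.30 on the log2 scale in the set of 2 (SE 0.11, adjusted p = 4.08e-08) and by 1.01 in the set of 3 (SE 0.13, adjusted p = 3.47e-04). The difference between these changes was 1.29 (SE 0.18, adjusted p = 1.13e-04 for the interaction). The controls themselves differed by 1.18 between the sets. Here and below, p-values within sets measure the spread between 2 against 2 or 3 against 3 libraries. Exact tests of these sizes allow no p below 0.333 and 0.1.

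Ccnd2, the gene of cyclin D2, moved the same way by less. Its log2 CPM was 7.91, 8.07 and 8.05 in controls 1 to 3 and 7.47 and 7.56 in controls 4 and 5. After stiripentol it was 6.12 and 6.47 in libraries 1 and 2 and 7.74, 7.69 and 7.74 in libraries 3 to 5. Stiripentol 1 and 2 stood far below all other libraries, and the other 3 lay between the 2 sets of controls. The pooled change was -0.66 (95% interval -1.39 to 0.07) and did not pass. Ccnd2 fell by 1.22 in the set of 2 (SE 0.13, adjusted p = 6.34e-06) and by 0.28 in the set of 3 (SE 0.06, adjusted p = 0.00565), and these differed (interaction 0.94, SE 0.14, adjusted p = 1.68e-04).

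Ccnd3 encodes cyclin D3, which is prominent in lymphoid cells. Controls 1 to 3 were at 6.72, 6.57 and 6.79 and controls 4 and 5 at 6.28 and 6.36 log2 CPM, against 5.75 and 5.85 in stiripentol 1 and 2 and 6.32, 6.26 and 6.24 in stiripentol 3 to 5. The groups overlapped in a narrow band, since stiripentol 3 was above control 4. Ccnd3 fell by 0.46 (SE 0.15, adjusted p = 0.0442). This call was the least firm of the 6. It was kept only without control 4, control 5 or stiripentol 3, and was lost without control 1, 2 or 3 or stiripentol 1, 2, 4 or 5, where the highest adjusted p was 0.102 (without stiripentol 2). The size was close in both sets, a fall of 0.52 (SE 0.11) in the set of 2 and of 0.42 (SE 0.07) in the set of 3, and the difference of 0.10 had an SE of 0.12.

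Summed over the 3 genes, D cyclin RNA was 470 and 495 CPM in controls 4 and 5 and 778 to 922 CPM in controls 1 to 3. It was 166 and 193 CPM in stiripentol 1 and 2 and 517 to 554 CPM in stiripentol 3 to 5. Per kb of annotated exon, Ccnd1 made up 61.8% to 76.6% of D cyclin RNA in control libraries and 38.5% to 63.4% in stiripentol libraries, and Ccnd3 7.2% to 12.2% and 10.4% to 27.3%. These ranges of Ccnd1 and Ccnd3 overlapped, with stiripentol 1 and 2 at the far end of each. The share of Ccnd2 was 15.9% to 26% in control and 26.2% to 36.2% in stiripentol libraries, narrowly without overlap.

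Cdk6 encodes the kinase that D cyclins activate besides Cdk4. It was at 7.64, 7.54 and 7.59 log2 CPM in controls 1 to 3, at 6.99 and 7.40 in controls 4 and 5, at 5.68 and 5.83 in stiripentol 1 and 2 and at 6.78, 6.66 and 6.68 in stiripentol 3 to 5. All 5 stiripentol libraries were below all 5 controls. The groups did not overlap, in either direction, for 5 of the 10 genes and for 27.2% of all genes. Cdk6 fell by 1.11 (SE 0.24, adjusted p = 0.00756), to 46.4% of control, and the exact permutation p of 0.00794 is the smallest this design can give. The fall was 1.44 (SE 0.14) in the set of 2 and 0.88 (SE 0.06) in the set of 3, and these differed (interaction 0.56, SE 0.16, adjusted p = 0.00911). Its partner kinase Cdk4 was at 8.26 ± 0.15 in control and 8.26 ± 0.18 in stiripentol (SD, n = 5), a log2 change of -0.0013 (SE 0.11, adjusted p = 0.994).

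**Figure D1:**
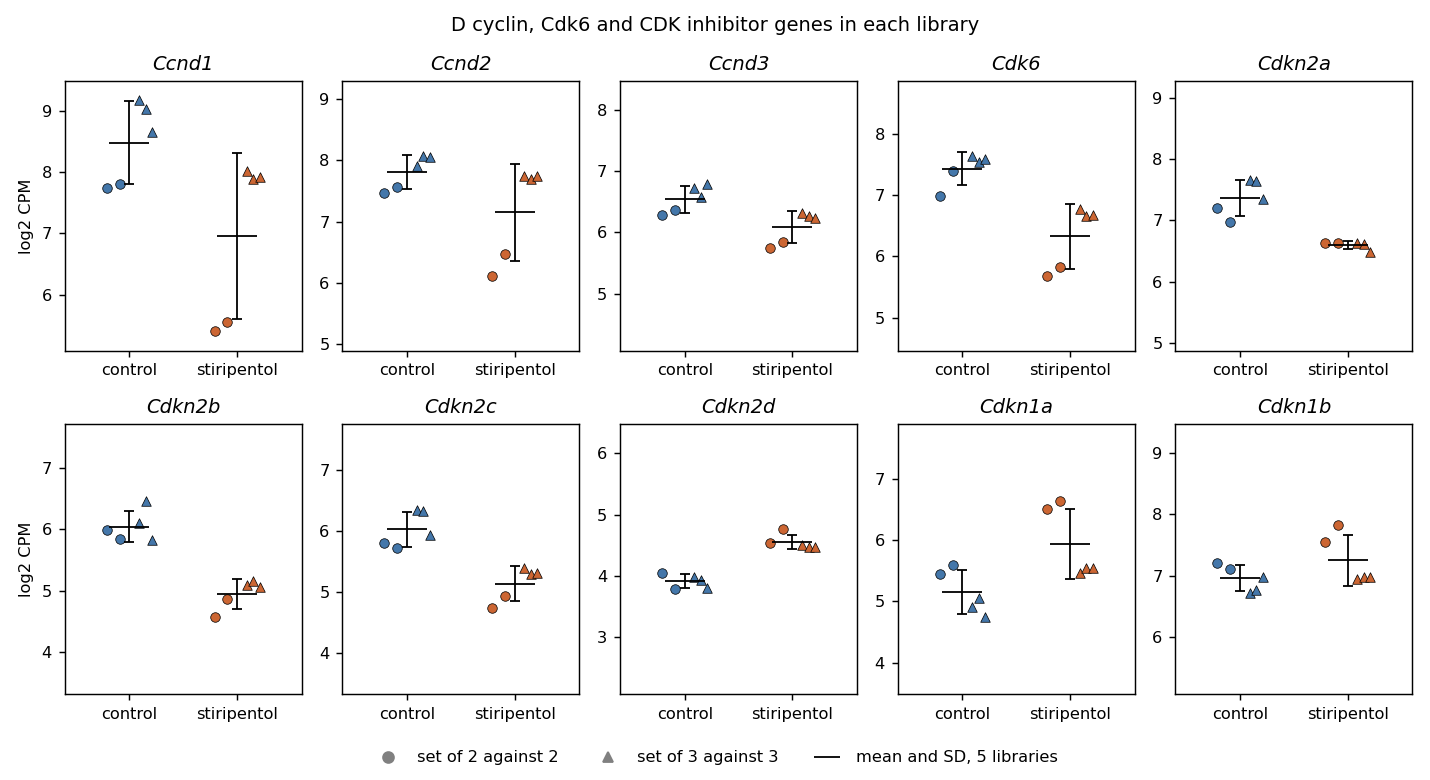
Log2 CPM of each of the 10 genes (one panel a gene, each vertical axis spanning the same number of log2 units) in the 5 control and 5 stiripentol libraries, with circles for the set of 2, triangles for the set of 3, and bars for the mean and SD of each group. The groups did not overlap for Cdk6, Cdkn2a, Cdkn2b, Cdkn2c and Cdkn2d, while for Ccnd1 and Ccnd2 the circles of stiripentol stand far below all other points.

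Of the 4 INK4 genes, Cdkn2a, Cdkn2b and Cdkn2c fell and Cdkn2d rose, each without overlap between the groups. Cdkn2a and Cdkn2b lie beside each other on the minus strand of chromosome 4, and Cdkn2c lies on the same strand of that chromosome, farther along. Cdkn2a has 2 start sites whose RNAs share later exons and are read in different frames, giving p16 from the nearer start and p19ARF, an activator of p53, from the farther one. Counts for the gene cannot tell these RNAs apart. The RefSeq promoter windows (build GRCm38.p6, 250 bases before to 50 after a start site) of the 2 Cdkn2a starts and of Cdkn2b are shown because these neighboring genes fell together.

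The window at the farther Cdkn2a start is chr4:89294570-89294869, minus strand. Capitals mark the E2F site TTTCCCGC, whose first base is 99 bases before the start, and 3 GC boxes GGGCGG.

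Cdkn2a, farther start: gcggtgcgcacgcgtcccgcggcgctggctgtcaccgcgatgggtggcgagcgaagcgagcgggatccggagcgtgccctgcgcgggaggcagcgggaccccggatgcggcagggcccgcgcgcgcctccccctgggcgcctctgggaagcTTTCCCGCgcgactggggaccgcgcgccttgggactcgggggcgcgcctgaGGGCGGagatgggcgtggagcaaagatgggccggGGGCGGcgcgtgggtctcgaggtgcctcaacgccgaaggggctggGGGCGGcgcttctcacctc

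The window at the nearer start is chr4:89282143-89282442, minus strand, and capitals mark its GC box.

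Cdkn2a, nearer start: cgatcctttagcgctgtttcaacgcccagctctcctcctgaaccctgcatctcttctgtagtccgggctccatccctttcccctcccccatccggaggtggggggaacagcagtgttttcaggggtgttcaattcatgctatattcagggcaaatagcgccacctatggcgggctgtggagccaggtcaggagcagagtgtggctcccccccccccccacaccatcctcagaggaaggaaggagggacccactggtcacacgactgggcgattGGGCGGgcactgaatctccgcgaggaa

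For Cdkn2b the window is chr4:89310983-89311282, minus strand. Capitals mark a CRE, TGACGTCA, which begins 46 bases before the start, and a GC box.

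Cdkn2b: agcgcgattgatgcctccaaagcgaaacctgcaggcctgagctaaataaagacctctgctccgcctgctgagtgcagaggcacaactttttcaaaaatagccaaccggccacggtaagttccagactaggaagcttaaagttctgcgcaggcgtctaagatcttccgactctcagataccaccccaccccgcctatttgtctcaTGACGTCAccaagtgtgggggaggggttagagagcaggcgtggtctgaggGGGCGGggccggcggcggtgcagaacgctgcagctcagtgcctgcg

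Both strands were searched for the E2F sites TTTCCCGC and TTTGGCGC, the CRE, the AP-1 site TGACTCA, the E-box CACGTG, the GC box, the forkhead site GTAAACA and the p53 decamer, in 12 windows that cover 8 of the 10 genes. The first of these, TTTCCCGC, was in 1 of the 12 windows and in 1.07% of all 32851 windows, and TGACGTCA was in 1 of the 12 and in 1.79% of all. GC boxes were in 9 of the 12, and 35.7% of all windows held one. CACGTG was in 1 window each of Cdk6 and Cdkn2c (7.15% of all windows) and GTAAACA in 1 of Ccnd3 (3.65%), while TTTGGCGC (0.514%) and TGACTCA (5.2%) were in none of the 12. A match says only that these letters are there.

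Cdkn2a was at 7.66, 7.65 and 7.35 log2 CPM in controls 1 to 3 and at 7.20 and 6.97 in controls 4 and 5. After stiripentol it was 6.64, 6.64, 6.63, 6.61 and 6.49 in libraries 1 to 5. All stiripentol libraries were low and lay within a narrow band, whereas the controls were spread out. Cdkn2a fell by 0.77 (SE 0.14, adjusted p = 0.00304), to 58.8% of control. On the deposited scale it fell more in the set of 3, by 0.98 (SE 0.09), than in the set of 2, by 0.45 (SE 0.11), and the interaction passed (-0.52, SE 0.15, adjusted p = 0.0103).

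Cdkn2b encodes p15, an INK4 protein known for its rise after TGF-beta. It was at 6.11, 6.46 and 5.82 in controls 1 to 3, at 5.99 and 5.85 in controls 4 and 5, at 4.57 and 4.86 in stiripentol 1 and 2 and at 5.09, 5.15 and 5.06 log2 CPM in stiripentol 3 to 5. The lowest control stood well above the highest stiripentol library. Cdkn2b fell by 1.10 (SE 0.16, adjusted p = 0.00112), which is 2.14-fold lower. It fell by 1.20 (SE 0.13) and 1.03 (SE 0.15) in the sets of 2 and of 3, and the difference of 0.17 had an SE of 0.22.

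Cdkn2c encodes p18. Its log2 CPM was 6.34, 6.32 and 5.94 in controls 1 to 3, 5.80 and 5.72 in controls 4 and 5, 4.74 and 4.94 in stiripentol 1 and 2 and 5.40, 5.29 and 5.32 in stiripentol 3 to 5. Every stiripentol library was below every control, and in both groups the libraries of the set of 2 were the lower ones. The gene fell by 0.89 (SE 0.18, adjusted p = 0.00539), by 0.92 (SE 0.12) in the set of 2 and by 0.86 (SE 0.11) in the set of 3, a difference of 0.06 with an SE of 0.17.

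Cdkn2d encodes p19INK4d, which is no product of Cdkn2a despite the like name. Controls were at 3.99, 3.94, 3.81, 4.05 and 3.79 and stiripentol libraries 1 to 5 at 4.54, 4.76, 4.51, 4.48 and 4.48 log2 CPM. All stiripentol libraries were higher than all controls. Cdkn2d rose by 0.64 (SE 0.12, adjusted p = 0.00431), which is 1.56-fold, by 0.74 (SE 0.14) in the set of 2 and by 0.58 (SE 0.08) in the set of 3. The difference was -0.16, with an SE of 0.15.

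The summed level of the 4 INK4 genes was 250 to 384 CPM in control and 173 to 198 CPM in stiripentol libraries. Per kb of exon, Cdkn2d made up 3.54% to 5.18% of INK4 RNA in controls and 10.3% to 12.8% after stiripentol, without overlap. The share of Cdkn2b was 18.9% to 23.4% in controls and 13.5% to 18.6% after stiripentol, narrowly without overlap. Cdkn2a kept the largest share in both groups, at 60.6% to 65.8% and 59.1% to 67%.

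Cdkn1a encodes p21, a target of p53 that other factors can also raise. The upstream of its 2 RefSeq windows, chr17:29090729-29091028 on the plus strand of GRCm38.p6, is shown because it held 2 matches to the p53 decamer, in capitals, which begin 73 and 51 bases before the start. The decamer was in 2 of the 12 windows, the other being that of Cdkn2d, and in 8.36% of all windows.

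Cdkn1a, upstream start: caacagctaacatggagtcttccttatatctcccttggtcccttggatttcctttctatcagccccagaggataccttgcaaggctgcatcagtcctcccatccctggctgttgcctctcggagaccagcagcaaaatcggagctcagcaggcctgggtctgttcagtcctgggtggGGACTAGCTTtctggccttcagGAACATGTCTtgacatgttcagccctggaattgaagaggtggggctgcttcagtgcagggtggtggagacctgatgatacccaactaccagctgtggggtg

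The log2 CPM of Cdkn1a was 4.90, 5.05 and 4.75 in controls 1 to 3, 5.44 and 5.60 in controls 4 and 5, 6.50 and 6.63 in stiripentol 1 and 2 and 5.46, 5.54 and 5.55 in stiripentol 3 to 5. Stiripentol 1 and 2 were the highest, and stiripentol 3 to 5 were level with controls 4 and 5, so the groups overlapped. The change was 0.79 (95% interval 0.18 to 1.40), which is 1.73-fold of control. It did not pass with all libraries (adjusted p = 0.0552) and passed without control 5, stiripentol 3 or stiripentol 5, where the adjusted p was 0.0452, 0.0437 and 0.0495. Within the sets Cdkn1a rose by 1.05 (SE 0.11, adjusted p = 1.03e-05) and by 0.61 (SE 0.09, adjusted p = 5.95e-04), and these differed (interaction -0.43, SE 0.14, adjusted p = 0.0198).

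Cdkn1b encodes p27, an inhibitor that accumulates in resting cells and is controlled largely by its turnover as a protein. It was at 6.71, 6.77 and 6.97 in controls 1 to 3, at 7.21 and 7.11 in controls 4 and 5, at 7.55 and 7.83 in stiripentol 1 and 2 and at 6.94, 6.97 and 6.97 log2 CPM in stiripentol 3 to 5. Stiripentol 1 and 2 were above all other libraries, and the other 3 lay among the controls. The pooled change of 0.30 (95% interval -0.13 to 0.72) did not pass. Cdkn1b rose by 0.53 in the set of 2 (SE 0.12, adjusted p = 0.00156), while in the set of 3 the change was 0.14 (SE 0.08, adjusted p = 0.143). The interaction passed (-0.39, SE 0.14, adjusted p = 0.0303).

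In both sets all 10 genes had the same direction, where 63% of all genes did. In the set of 2 alone, 10 of the 10 genes passed, against 72.2% of all genes, and in the set of 3 alone 9 did, against 64.7%. The interaction passed for 6 of the 10 genes, and for 63.3% of all genes. In 5 of these 6, Ccnd1, Ccnd2, Cdk6, Cdkn1a and Cdkn1b, the change was larger in the set of 2, and in Cdkn2a it was larger in the set of 3. The median change of all genes was -0.25 in the set of 2 and 0.08 in the set of 3, and after quantile normalization, which set these medians to 0.07 and 0.03, Ccnd1 still fell by 2.13 and by 0.97 and Cdkn2d rose by 1.12 and by 0.52. With that normalization 3 genes turned to a larger fall in the set of 3, with changes in the sets of 2 and of 3 of -0.34 and -0.46 for Ccnd3, -0.90 and -1.12 for Cdkn2b and -0.62 and -0.93 for Cdkn2c.

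**Figure D2:**
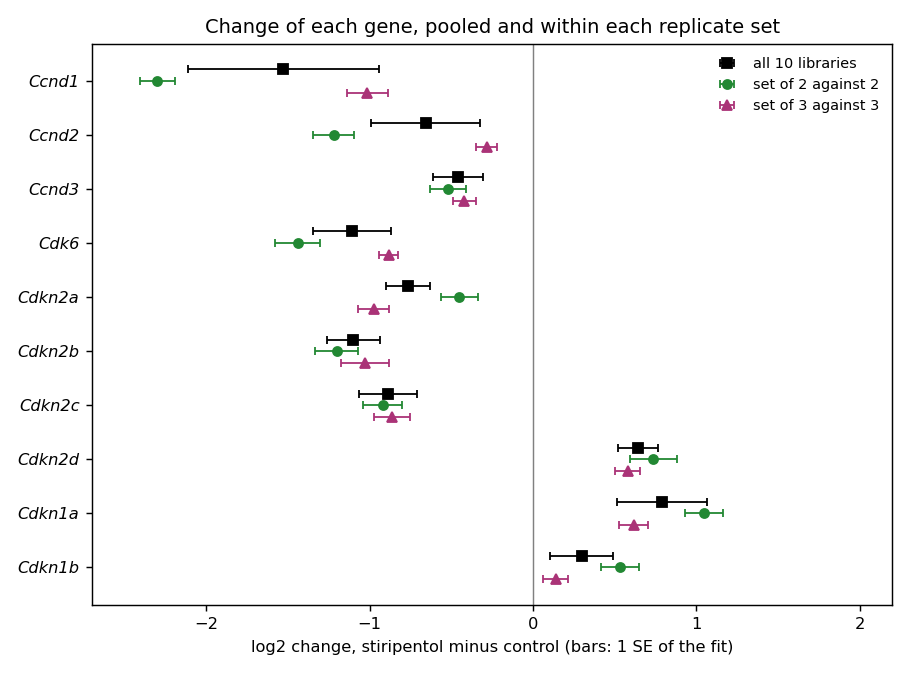
Log2 change of each gene, stiripentol minus control, with all 10 libraries (squares), in the set of 2 against 2 (circles) and in the set of 3 against 3 (triangles), with bars of 1 SE of each fit. All 3 estimates of a gene lie on the same side of 0, and the gap between the sets is widest for Ccnd1, at -2.30 and -1.01.

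Levels were compared between genes per kb of annotated exon, which fits libraries that read along the whole transcript. The kit was named in 2 ways, as a total RNA kit in the sample records and as a 3′ mRNA kit in the study's methods. The order of the genes, and the shares per kb given above, hold only for the first. In controls Cdkn2a was highest, at 7.14 ± 0.30 log2 CPM per kb (SD, n = 5), followed by Ccnd1 at 6.25 ± 0.67 and Cdkn2b at 5.57 ± 0.26, and the ranges of neighbors in this order overlapped. Cdkn2b did not overlap with the next gene, Cdkn1b, at 4.77 ± 0.21. Cdkn1b, Cdkn2c and Ccnd2 (the last at 4.58 ± 0.28) overlapped with each other, and Ccnd2 did not overlap with Cdk6, at 3.63 ± 0.26. The range of Cdk6 overlapped with that of Ccnd3. Ccnd3, Cdkn1a and Cdkn2d were last, at 3.41, 3.32 and 3.26 with overlapping ranges.

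After stiripentol Cdkn2a was still highest, at 6.37 ± 0.06 log2 CPM per kb, without overlap with the next. By the mean, Cdkn1b came next at 5.07 ± 0.41 and then Ccnd1 at 4.72 ± 1.35, with overlapping ranges (4.75 to 5.65 and 3.16 to 5.79). This order came from stiripentol 1 and 2. In stiripentol 3 to 5, Ccnd1 was the higher, at 7.88 to 8.02 log2 CPM against 6.94 to 6.97 for Cdkn1b. Their exon lengths are 4.709 and 4.552 kb. Cdk6 was lowest, at 2.52 ± 0.53, with a range that overlapped with that of Ccnd3.

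**Figure D3:**
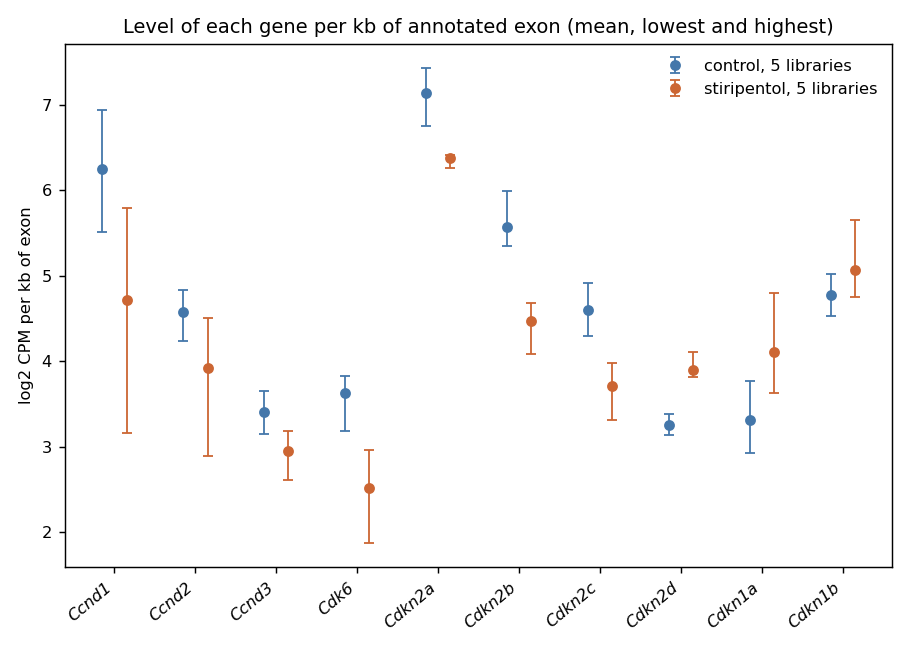
Level of each gene in log2 CPM per kb of annotated exon, as the mean of 5 control (blue) and 5 stiripentol (orange) libraries, with bars from the lowest to the highest library. Cdkn2a is highest in both groups, at 7.14 and 6.37, and Ccnd1 has the widest bar after stiripentol, from 3.16 to 5.79.

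The genes around the cyclin D and inhibitor step were read from 6 lists of 107 genes, of which 104 were tested, 9 rose and 10 fell, where 13.6% of all genes rose and 14.1% fell. The 10 became 3 without control 1, stiripentol 1 or stiripentol 2, 4 without control 2 and 5 without control 3. Among 9 tested cyclins, kinases and inhibitors of G1 and S phase, 0 rose, 2 fell and the median change was -0.08, where the median of all genes was -0.06. The 2 were Cdk2, the partner of cyclins E and A, which fell by 0.50 (SE 0.15, adjusted p = 0.0289), and Cdk7, the kinase that activates the others, which fell by 0.52 (SE 0.16, adjusted p = 0.0361). Both calls were lost without control 1 or 2 or stiripentol 1 or 2, that of Cdk2 also without stiripentol 3 and that of Cdk7 also without control 4 or 5, with adjusted p up to 0.073 and 0.0848.

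Of the 17 pocket protein, E2F and DREAM genes, 2 rose, 0 fell, and the median was -0.04. Lin37 and Lin52, which encode subunits of the MuvB core of the DREAM complex, rose by 1.30 (SE 0.32, adjusted p = 0.0141) and 0.61 (SE 0.14, adjusted p = 0.00927). Rb1 itself had a change of 0.89 (SE 0.43, adjusted p = 0.143) and passed with a term for the set (adjusted p = 0.002).

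Of p53 and 19 of its target genes, other than Cdkn1a, 2 rose, 3 fell, and the median was -0.04. Gadd45a and Pmaip1, a growth arrest gene and the gene of the killer protein NOXA, rose by 1.96 (SE 0.30, adjusted p = 0.00142) and 1.02 (SE 0.27, adjusted p = 0.0202). Btg2, Phlda3 and Sesn1, which restrain growth, AKT and mTORC1 in turn, fell by 1.31, 0.67 and 0.65. The call of Phlda3 (adjusted p = 0.0401) was lost without control 1, 2, 3 or 4 or stiripentol 1 or 2, up to an adjusted p of 0.0935. Trp53 had a change of -0.32 (SE 0.44, adjusted p = 0.595).

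For the turnover of p27 and D cyclins, limma called 0 of 13 genes, and 1 had an unadjusted p under 0.05. Skp2, the receptor that brings p27 to its ubiquitin ligase, was at 4.65 ± 0.63 in control and 3.87 ± 0.95 in stiripentol (SD, n = 5), a change of -0.78 (SE 0.45, adjusted p = 0.211). With a term for the set 4 of the 13 fell, a share near the 27.1% of all genes that fell in that model. They were Skp2, Fbxw7, Skp1a and Fbxo31. Fbxw7 had the largest pooled change of the list, -1.49 (SE 0.80, adjusted p = 0.18 by limma), with -3.21 in the set of 2 and -0.35 in the set of 3.

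Of 23 transcription factors and chromatin regulators known to act on these genes, 3 rose, 5 fell, and the median was -0.26. That median was -0.45 in the set of 2 and -0.02 in the set of 3, where those of all genes were -0.25 and 0.08. The rises were those of Ezh2, the methyltransferase of the Polycomb complex that represses the Cdkn2a locus, by 1.13 (SE 0.23, adjusted p = 0.00603), of Dmtf1, an activator of p19ARF, by 0.58 (SE 0.14, adjusted p = 0.0149), and of Smad2, a TGF-beta effector, by 0.28 (adjusted p = 0.0459). The largest falls were those of the ETS factor Ets1 by 0.73, of Smad3, the other TGF-beta effector, by 0.73, and of the forkhead factor Foxo4 by 0.70, with adjusted p = 0.0368, 0.0448 and 0.0266. Cbx7 and Bmi1, also Polycomb genes, moved the other way from Ezh2. Their changes were -0.48 (SE 0.15, adjusted p = 0.0341) and -0.42 (SE 0.15, adjusted p = 0.0614), so Bmi1 did not pass. Cbx7 lost its call without control 1, 2 or 3 or stiripentol 1, 3 or 4 (up to 0.0792). Ezh2 and Dmtf1 kept their calls without any 1 library. The call of Smad2 was kept only without control 5, up to an adjusted p of 0.102 without another library. Smad3 lost its call without control 1, 2, 3 or 5 or stiripentol 1 or 2 (up to 0.1), Ets1 without control 1, 2 or 3 or stiripentol 1, 2 or 4 (up to 0.0868), and Foxo4 without control 4 or stiripentol 1 or 2 (up to 0.0597).

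Of 22 E2F-driven replication and division genes, 2 rose and 0 fell, and the median was 0.49. Mki67, the gene of the proliferation marker Ki-67, rose by 0.93 (SE 0.28, adjusted p = 0.0331) and Aurka, a mitotic kinase, by 1.05 (SE 0.24, adjusted p = 0.00997). Mki67 lost its call without control 5 or any 1 of the stiripentol libraries, up to an adjusted p of 0.0664. In the set of 2 the median of the list was 0.75 and in the set of 3 it was 0.07. With a term for the set 9 of the 22 rose and 3 fell, where 23.6% of all genes rose and 27.1% fell. The 3 were the replication genes Mcm6, Tk1 and Tyms, which fell by 0.67, 0.86 and 0.79. The 9 were Mcm2, Mki67, Top2a, Cdk1, Ccnb1, Ccnb2, Aurka, Aurkb and Bub1, mostly division genes. The median of the list thus pools genes that moved in both directions.

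**Figure D4:**
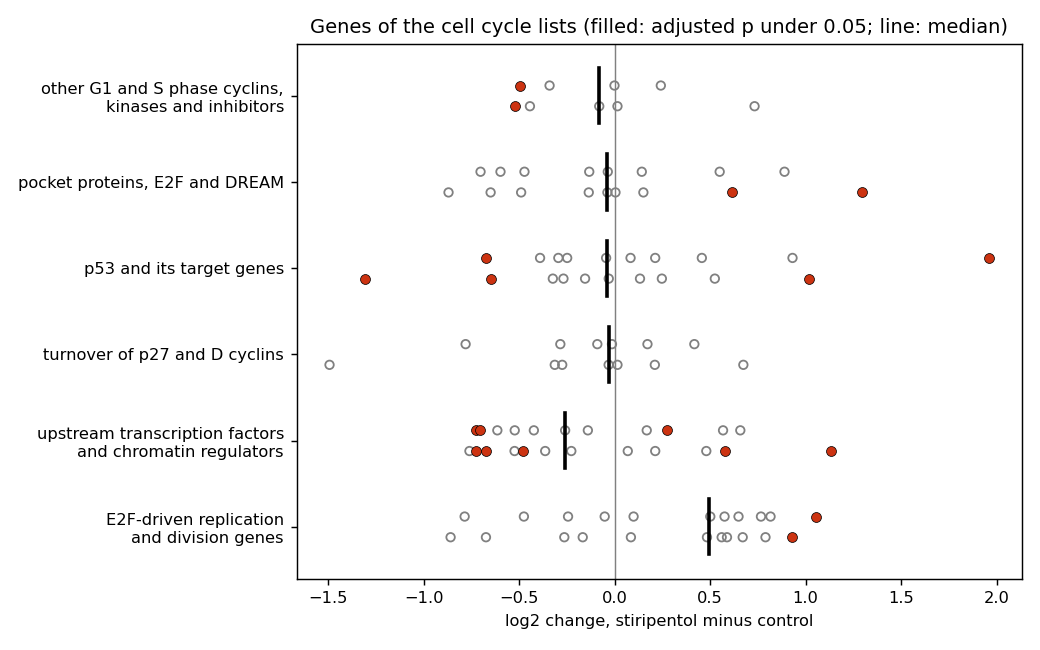
Log2 change, stiripentol minus control, of the 104 tested genes of the 6 lists, one row a list, with filled points for genes at an adjusted p under 0.05 and a vertical line at the median of each list. The medians lie between -0.26 and 0.49, and no gene of the list on p27 and D cyclin turnover is filled.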

How the data were processed

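RNA sequencing of mSCLC-2405 cells, with 5 control and 5 stiripentol libraries (250 μM, 48 h), was taken from the table the authors deposited. It holds deposited log2 CPM values, and the authors had added a small prior to each before the logarithm. The methods name GENAVi for this step, and the submitters' processing notes name the build mm10. The aligner, counter, annotation and filters are not given in the sources used here. The table's own group means, p-values, q-values and fold changes were not used. Whole reads were recovered from all values (tolerance 0.01) for depth, shares and voom only. Intervals describe the spread between libraries, and depth covers counting error only.

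Groups came from the sample titles. The deposited log2 values were fitted with limma 3.58.1 in R 4.3.3 (lmFit, eBayes with a trend) over the 12306 genes with a mean above 0, without a covariate, and two-sided exact permutation tests used all arrangements of 5 against 5. Interaction models held group, replicate set and their product. Replicate sets follow the numbering of the study's own table, matched by identical values. The replicate numbers of the sample records share a number only, since deviations of same-numbered libraries correlated at -0.24 to 0.061. Exon lengths come from GENCODE M21 on GRCm38 and promoter windows from RefSeq. The model was tested on simulated data.

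The genes, lists and alternatives were chosen with earlier results of these data known. The genes named are the 10 members, the 3 largest rises and falls called in each list, Rb1 and Trp53, the 3 genes most like each called member, and the cell type markers, of which 1 is not reported here. Cdk4, Skp2, Cdkn1c, Cbx7, Bmi1 and the E2F-driven genes named for the model with a set term were named after their values were seen. So were Fbxw7, Skp1a and Fbxo31. Alternatives were each library left out, a replicate block, a term for the set, each set alone, the libraries sharing 1 value for 0 reads, set means, other scalings, filters and a pseudocount of 1 CPM. Quantile normalization within the set models was chosen after seeing the data.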

Additional observations from a re-analysis of the deposited data

Results flagged for a closer look

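The change after stiripentol differed between the replicate sets for 6 of the 10 genes, by the interaction term of limma. The change in the set of 3 minus that in the set of 2 was 1.29 for Ccnd1, 0.94 for Ccnd2 and 0.56 for Cdk6, which all fell less in the set of 3. It was -0.52 for Cdkn2a, which fell more there, and -0.43 for Cdkn1a and -0.39 for Cdkn1b, which rose less there or did not pass. The interaction passed for 63.3% of all genes, so 6 of 10 is a share near that of all genes. What separates the sets is not given in the sources used here.

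In 3 of 22 groups of 5 values, 1 library stood far from the others by the 95% limit of Dixon's test, where chance gives 1.1. They were Cdkn2a in stiripentol 5, at 6.49 log2 CPM against 6.61 to 6.64 in the other 4, Cdkn2d in stiripentol 2, at 4.76 against 4.48 to 4.54, and the total of control 5, at 22375625 reads against at least 57991647 in the other controls.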

How the results depend on the processing

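Over 240 values of the 10 genes under 24 alternatives, 0 changed direction, 197 kept their side of the threshold, 18 lost and 25 gained it. Without 1 library at a time, 1 to 2 of the 10 genes were higher and 4 to 5 lower, list genes were 7 to 11 higher and 3 to 10 lower, and all genes 1218 to 1706 higher and 1171 to 1802 lower. Cdk6, Cdkn2a, Cdkn2b, Cdkn2c and Cdkn2d kept their calls in all 10 of these fits, Ccnd3 in 3, Cdkn1a gained one in 3, and Ccnd1, Ccnd2 and Cdkn1b were called in none.

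A term for the set gave 3 genes higher and 7 lower (list genes 22 and 26, all genes 2908 and 3336). The set of 2 gave 3 and 7 (list genes 32 and 43, all genes 3158 and 5726), and the set of 3 gave 2 and 7 (list genes 32 and 29, all genes 4637 and 3322). After quantile normalization, chosen after seeing the data, these were 3 and 7 (26 and 21, 3556 and 3002), 3 and 7 (48 and 33, 4802 and 4189) and 2 and 7 (32 and 29, 4225 and 3666). The libraries sharing 1 value for 0 reads, which leave 2 controls, gave 1 and 2, with Ccnd3, Cdk6 and Cdkn2c not called (adjusted p = 0.402, 0.133 and 0.0758), and 17 and 4 list genes. With 1 mean per group and set all counts by limma were 0, with 2 of the 10 genes and 1116 of all genes at an unadjusted p under 0.05. Without a filter 6 list genes were lower and Ccnd3 lost its call (adjusted p = 0.0709). An absolute log2 change of at least 1 left 0 and 2 of the 10 genes (5 and 1 list genes, 404 and 890 of all genes). The median change of all genes moved from -0.06 to 0.05 with quantile normalization, which gave 1 gene higher and 5 lower, as did voom, a mean above 1 and log2(CPM + 1). The interaction was called for 5 to 7 genes over its 4 alternatives.

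With the replicate block, which rests on numbers that do not pair the libraries, 1 of the 10 genes was higher and 4 lower, Ccnd3 losing its call (adjusted p = 0.102), beside 5 and 4 list genes and 1020 and 1062 of all genes, or 16.9% of them. Each of the 10 genes had 309 reads or more in each library. What separates the sets is not known, and 3 against 3 libraries allow no exact p below 0.1 and 2 against 2 none below 0.333.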

Other observations

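Cdkn1c encodes p57, the other KIP inhibitor, and was under the filter on low values, so it was not tested. It had 0, 1 and 1 reads in controls 1 to 3, 86 and 32 in controls 4 and 5, 76 and 70 in stiripentol 1 and 2 and 8, 17 and 7 in stiripentol 3 to 5. Controls 4 and 5 and stiripentol 1 and 2 were at 1.21 to 1.43 CPM, and the other 6 libraries at or under 0.284 CPM. Its level thus differed most between the replicate sets. Within the set of 3 it was at most 0.0172 CPM in controls and 0.127 to 0.284 CPM in stiripentol libraries, without overlap, at few reads.

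The genes whose log2 CPM over the 10 libraries was most like that of a called member had Pearson correlations of 0.975 to 0.995, given as a description, since the 10 libraries fall in 4 combinations of group and set. For Cdk6 they were Peak1, Frmd6 and Filip1l, and for Ccnd3 Dlc1, Tmem119 and Hbegf. For Cdkn2a they were Ap1m1, Srsf6 and Sfpq, for Cdkn2b Clip2, Atp8b2 and Fam109a, and for Cdkn2c Mum1, Aldh16a1 and Aacs. For Cdkn2d they were Sdhaf3, Rpp21 and the pseudogene Tcea1-ps1, whose reads cannot be told apart from those of its parent gene with certainty.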
